A study of Mus musculus with 8 samples.

Results

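Of the 54735 genes in the count table, 7 encode the precursors and receptors of the endogenous opioid system, and these were followed in the ventral tegmental area (VTA), the midbrain region that holds dopamine neurons of the reward pathway. They were chosen by name and comprise 3 precursors (Penk, Pdyn and Pnoc) and 4 receptors (Oprm1, Oprd1, Oprk1 and Oprl1). All 7 passed the filter on low counts that left 16538 genes for testing. RNA was sequenced from bilateral VTA punches of 4 unhandled control (CTR) and 4 Social Stress (SS) mice of the DBA2/J strain, labelled as male and as P21 (the methods place dissection a day later), with 1 library per mouse. SS pups had been exposed to a threatening adult mouse for 30 min per day over 7 consecutive days (P14 to P21), and CTR litters were left undisturbed. The comparison asks whether this early social stress goes with other levels of the opioid transcripts in the developing VTA. The methods allow up to a pair of same-sex siblings from a litter and the labels do not give the litter, so some libraries may share one.

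Opioid peptides are cut from larger precursor proteins and act on receptors that couple to inhibitory G proteins. Enkephalins come mainly from Penk, dynorphins from Pdyn and nociceptin from Pnoc. The µ receptor (Oprm1) and δ receptor (Oprd1) prefer enkephalins and endorphin, the κ receptor (Oprk1) prefers dynorphins, and the nociceptin receptor (Oprl1) binds nociceptin. In the VTA, µ receptors on GABA neurons are known to release dopamine neurons from inhibition, and κ receptors on dopamine neurons to restrain them.

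The precursors differ in what they carry, which matters for reading their transcript levels as a supply of peptide. The coding sequence of each precursor (GENCODE M21, GRCm38) was searched in frame on its own strand for the codons of tyrosine, glycine, glycine and phenylalanine in a row, which open every classical opioid peptide, and for the same run with phenylalanine in place of tyrosine, which opens nociceptin. Penk held 7 copies of the first run in 804 coding bases, Pdyn 3 copies in 744 and Pnoc 0 copies in 636. The second run occurred 1 time in Pnoc and 0 times in Penk and Pdyn. Of the sequences below, read 5′ to 3′ on the coding strand, capitals mark the run of 4 codons and the lower-case codon is the residue that follows, atg for a Met-enkephalin core and ctg or ttg for a Leu-enkephalin core.
Penk, first copy (exon 2 of 2, chr4:4134334-4134348, minus strand): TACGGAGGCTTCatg
Penk, sixth copy (exon 2 of 2, chr4:4133941-4133955, minus strand): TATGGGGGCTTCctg
Pdyn, first copy (exon 4 of 4, chr2:129688238-129688252, minus strand): TATGGCGGCTTTttg
Pdyn, second copy (exon 4 of 4, chr2:129688130-129688144, minus strand): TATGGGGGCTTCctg
Pdyn, last copy (exon 4 of 4, chr2:129688073-129688087, minus strand): TATGGTGGTTTCctg
Pnoc, single copy (exon 3 of 4, chr14:65404878-65404892, minus strand): TTTGGGGGCTTCacc
The sixth copy was the only one of the 7 in Penk that was followed by a leucine codon.

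Counts were scaled for library size and are given as CPM, counts per 1000000 counts of the TMM-normalized library. Where values of single libraries are listed, they follow the library numbers, 1, 2, 3 and 5 for CTR and 2, 3, 4 and 5 for SS. The libraries held between 20036086 and 47319997 counts. Xist, which marks a female library, had 14997 counts in CTR-5 and 6551 in SS-5 against 0 to 3 in the other 6, so these 2 libraries go against the label male. Low-level transcripts were also missing unevenly. Among 4489 tested genes whose mean level lay between 1 and 10 CPM, CTR-1 had under 3 counts for 13.4% and CTR-2 for 9.6%, while the share was 0.0446% to 2.38% elsewhere. Dopamine neuron markers (8 genes) were present in every CTR punch, at a summed level of 890 to 1930 CPM, and stood at 226 to 315 CPM in SS, and 6 of the 8 genes passed the test. For 8 genes of the hypothalamus and mammillary region the summed level was 20.2 to 66.5 CPM in CTR and 74.99 to 107 CPM in SS, and 5 markers of cortical and hippocampal excitatory neurons ranged from 23.7 to 498 CPM in CTR and from 26.6 to 91.4 CPM in SS. GABA neuron markers (3 genes) summed to 413 to 459 CPM in CTR and 356 to 550 CPM in SS, and markers of striatal projection neurons (8 genes) to 172 to 202 and 151 to 178 CPM. From the RNA of punches alone, fewer cells of a type and less RNA per cell cannot be told apart. In stained sections of other mice, the paper found no difference between CTR and SS in the number of VTA neurons with tyrosine hydroxylase, a dopamine neuron marker.

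None of the 7 opioid genes differed between SS and CTR in edgeR's quasi-likelihood test with Benjamini-Hochberg adjustment over all tested genes, which called 0.0847% of genes, 14 in all. None had an unadjusted p under 0.05 either, where 6.55% of all tested genes did, and DESeq2 called none (0.419% of the genes it tested). The SS and CTR values overlapped in each of the 7, whereas they did not in 4.67% of all tested genes. Of the 7, 5 had a positive and 2 a negative log2 fold change (SS relative to CTR), with a median of 0.10 beside 0.0037 over all genes. In edgeR's test Penk and Oprk1 had the smallest p-values and lay lower in SS, and Oprl1 had the narrowest interval. In the exact permutation test of each gene the smallest p was that of Oprl1 (0.17), before Oprk1 (0.20) and Penk (0.31). Oprm1 and Pdyn had intervals so wide that neither a large rise nor a large fall could be told from none at this depth and spread.

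**Figure D1:**
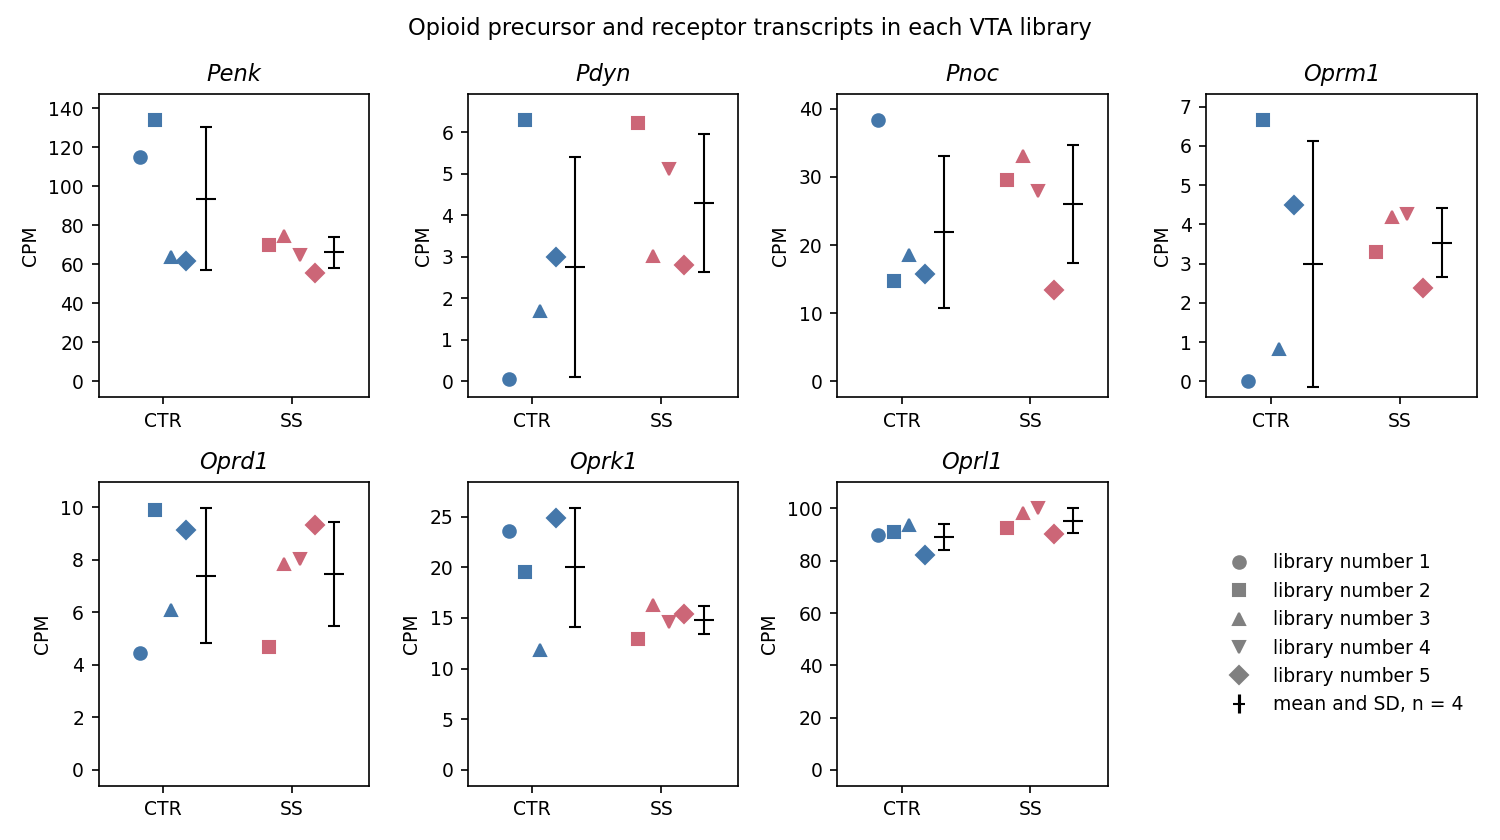
CPM of each opioid gene (linear vertical axes that include 0) in the 4 CTR (blue) and 4 SS (red) libraries, with the symbol giving the library number and the black bar the mean and SD of each group (n = 4). Groups overlap in every panel; CTR-1 sits at or near 0 for Pdyn and Oprm1 and highest for Pnoc, and Oprl1 stays within 82.0 to 100.1 CPM throughout.

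Penk encodes the precursor of the enkephalins. It lies on chromosome 4 (4133531 to 4138819, minus strand, GRCm38) and was the most abundant of the precursors. The CTR libraries held 115, 134, 63.6 and 61.8 CPM of it, and the SS libraries 69.99, 74.3, 64.8 and 55.4 CPM. CTR-1 and CTR-2 thus stood above every SS library, while CTR-3 and CTR-5 lay within the SS range. The CTR mean was 93.6 ± 36.5 CPM and the SS mean 66.1 ± 8.14 CPM (SD, n = 4 in each group, as in all means below). The log2 fold change was -0.50 (SE 0.23, 95% interval -1.01 to 0.0090, unadjusted p = 0.054, adjusted p = 0.75), a ratio of 0.707. The exact two-sided permutation test over the 70 assignments of the libraries, which cannot give a p below 0.029, gave p = 0.31. DESeq2 gave Penk an unadjusted p of 0.036 and an adjusted p of 0.56. The estimate depended on the CTR libraries kept. It was -0.27 when CTR-2 was dropped, -0.38 when CTR-1 was, and 0.08 (SE 0.13) when both were. CTR-1 and CTR-2 held the highest CTR levels, so dropping them had to raise the estimate. They were also the libraries that lacked the most low-level genes. The fall was larger when a lower CTR library was dropped, at -0.65 (SE 0.23) for CTR-3 and -0.66 (SE 0.22) for CTR-5. Every fit that dropped a single library gave a negative value. An antisense transcript, A830012C17Rik, shares 233 exon bases with Penk and collected 18 counts in all.

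Pdyn encodes the precursor of the dynorphins and maps to chromosome 2 (129686565 to 129699844, minus strand). It was sparse. The CTR libraries held 1, 156, 39 and 118 counts of it, equal to 0.052, 6.30, 1.68 and 3.01 CPM. The SS libraries held 260, 146, 136 and 73 counts, equal to 6.22, 3.03, 5.12 and 2.81 CPM. The SS range thus fell inside the CTR range, and the CTR libraries ran from a single count to the highest level of all. The CTR mean was 2.76 ± 2.65 CPM, the SS mean was 4.29 ± 1.65 CPM, and the log2 fold change was 0.63 (SE 0.81, 95% interval -1.14 to 2.40, adjusted p = 0.90). That interval spans ratios from 0.455 to 5.28. Leaving out CTR-1 lowered the estimate to 0.23, and leaving out CTR-2 raised it to 1.42.

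Pnoc encodes the nociceptin precursor on chromosome 14 (65400673 to 65425472, minus strand), a peptide made largely by GABA neurons. Its levels were 38.4, 14.7, 18.6 and 15.7 CPM among CTR libraries and 29.6, 33.0, 28.0 and 13.5 CPM among SS libraries. Thus 3 of the SS libraries were about level with each other and lay above 3 of the CTR libraries, while CTR-1 was the highest and SS-5 the lowest of all 8. The log2 fold change was 0.26 (SE 0.33, 95% interval -0.47 to 0.99, adjusted p = 0.90) between a CTR mean of 21.9 ± 11.2 CPM and an SS mean of 26.0 ± 8.61 CPM. It rose to 0.67 without CTR-1, with an adjusted p between 0.58 and 0.999 when single libraries were left out. SS-5 also had the lowest summed level of the GABA neuron markers (356 CPM). Yet CTR-1, at 413 CPM, was the lowest CTR library for this sum. Single markers differed. Slc32a1 was highest of all 8 libraries in CTR-1 (138 CPM) and stood at 130 CPM in SS-5. Gad1 (97.1 CPM) and Gad2 (129 CPM) were lowest in SS-5, and stood at 122 and 153 CPM in CTR-1. The part of these markers in the Pnoc levels was not tested.

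Oprm1 encodes the µ receptor on chromosome 10 (6758506 to 7038198, plus strand) and was the scarcest of the receptors. The CTR libraries held 0, 165, 19 and 176 counts of it, and the SS libraries 138, 202, 113 and 62. A count of 0 in CTR-1 allows a level of up to 0.155 CPM (3 counts, counting error only). In CPM, CTR-2 (6.67) and CTR-5 (4.48) lay above every SS library (2.39 to 4.26), and CTR-1 and CTR-3 (0.821) below every one of them. The means were 2.99 ± 3.13 CPM (CTR) and 3.53 ± 0.880 CPM (SS). The log2 fold change of 0.23 (SE 0.94, 95% interval -1.82 to 2.29, adjusted p = 0.97) turned to -0.18 without CTR-1 and to -0.087 without CTR-3. Exons of Oprm1 share 96 bases with Ipcef1 on the other strand, which collected 5520 counts in all, and whether reads were counted by strand is not stated.

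The same CTR libraries were low in Pdyn and in Oprm1. From the lowest, the order in CTR was CTR-1, CTR-3, CTR-5 and CTR-2 for both genes. In that order, the summed level of 8 hypothalamic and mammillary markers was 20.2, 29.3, 30.4 and 66.5 CPM, and that of cortical and hippocampal markers 23.7, 72.9, 498 and 269 CPM. Of the 8 markers, Sim1 and Pmch rank the libraries in the same order and the other 6 do not, as with Foxb1 at 5.17, 13.2, 7.44 and 21.3 CPM. In SS the hypothalamic sum was highest in SS-5 (107 CPM), which was the lowest SS library for both Pdyn and Oprm1. CTR-1 was also the library with the most low-level genes under 3 counts (13.4%), but CTR-2, with 9.6%, had the highest level of both genes. The part of neighbouring tissue or of missing low-level transcripts in these values was not tested.

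Oprd1, the δ receptor gene on chromosome 4 (132110726 to 132144486, minus strand), stood at 4.44, 9.90, 6.09 and 9.14 CPM in the CTR libraries. Its SS values were 4.66, 7.84, 8.02 and 9.32 CPM. Both groups thus ran over the same range. Their means were 7.39 ± 2.57 and 7.46 ± 1.98 CPM, and the log2 fold change was 0.0085 (SE 0.32, 95% interval -0.70 to 0.71, adjusted p = 0.998), which leaves ratios from 0.617 to 1.64 possible.

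Oprk1 encodes the κ receptor, which dopamine neurons of the VTA are known to carry, on chromosome 1 (5588466 to 5606131, plus strand). Its CTR values were 23.6, 19.6, 11.9 and 24.9 CPM, and its SS values 12.9, 16.2, 14.6 and 15.4 CPM. All SS libraries lay below 3 of the CTR libraries, but CTR-3 was the lowest of the 8. The CTR mean was 19.98 ± 5.85 CPM and the SS mean 14.8 ± 1.41 CPM, a log2 fold change of -0.44 (SE 0.22, 95% interval -0.92 to 0.053, unadjusted p = 0.076, adjusted p = 0.75) and an exact permutation p of 0.20. The estimate ranged from -0.62 without CTR-3 to -0.31 without CTR-5, and was -0.33 over the 6 libraries without CTR-5 and SS-5. The summed level of 8 dopamine neuron markers was also lower in SS. Of these genes, 7 had a negative log2 fold change and Nr4a2 a positive one. Their summed CTR levels were 1930, 1200, 890 and 1790 CPM. CTR-1 and CTR-5 were thus the upper pair, and CTR-3 the lowest CTR library, for Oprk1 and for this sum. Single markers differed, with Nr4a2 lowest in CTR-1 (47.7 CPM) and Aldh1a1 highest in CTR-2 (345 CPM). Yet all SS libraries exceeded CTR-3 in Oprk1 while their marker sums, 226 to 315 CPM, were far below its own. How far the markers account for Oprk1 was not tested.

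Oprl1, the nociceptin receptor gene on chromosome 2 (181715016 to 181720985, plus strand), was the most abundant receptor and the steadiest member. The CTR libraries held 89.9, 90.9, 93.6 and 82.0 CPM of it, and the SS libraries 92.7, 98.4, 100.1 and 90.3 CPM. SS-3 and SS-4 lay above every CTR library, CTR-1 and CTR-5 lay below every SS library, and the other 4 values were mixed. The coefficient of variation was 5.57% in CTR and 4.87% in SS. The log2 fold change was 0.10 (SE 0.094, 95% interval -0.11 to 0.31, adjusted p = 0.86), so ratios outside 0.928 to 1.24 lie beyond this interval.

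**Figure D2:**
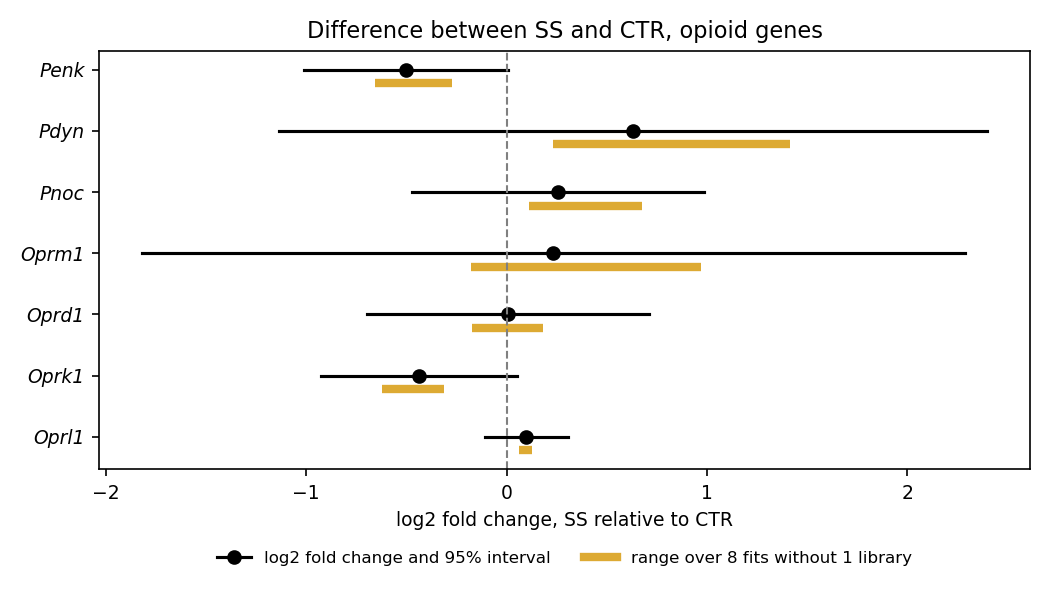
Log2 fold change of SS relative to CTR for the 7 opioid genes (points) with 95% intervals from edgeR's quasi-likelihood test (black lines) and the range of the estimate over the 8 fits that each left out 1 library (yellow bars). Every interval includes 0; Oprl1 has the narrowest (-0.11 to 0.31) and Oprm1 the widest (-1.82 to 2.29), and the yellow bars of Oprm1 and Oprd1 cross 0.

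All 7 genes had a larger coefficient of variation in CTR than in SS, from 5.57% for Oprl1 to 105% for Oprm1 in CTR, and from 4.87% for Oprl1 to 38.5% for Pdyn in SS. This was a property of the whole table, since 82.9% of tested genes had the larger value in CTR and the median over genes was 25.5% in CTR and 13.3% in SS.

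Levels of different genes were compared after division by gene length, taken as all exon or all coding bases annotated in any transcript of the gene. This length can exceed that of each single transcript, as with Pnoc, at 644 coding bases beside 636 in the transcript searched above. Per kb of exon, Penk ranged from 33.9 to 82.1 CPM per kb over the 8 libraries, Pnoc from 6.25 to 17.8 and Pdyn from 0.0179 to 2.18. Penk was the highest and Pdyn the lowest in each library, and these ranges did not overlap. Of the summed length-scaled level of the 3 precursors, Penk made up 79.8% to 90.1% in CTR and 72.9% to 82.4% in SS, and Pnoc 7.49% to 20.2% and 15.2% to 24.8%. Per kb of coding sequence the shares of Penk were 70.6% to 84.2% and 61.5% to 73.6%, and those of Pnoc 11.5% to 29.4% and 22.4% to 34.7%. On both scales these shares overlap between the groups, and they were not tested.

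Among the receptors, Oprl1 ranged from 21.9 to 26.7 CPM per kb of exon, far above the other 3. Oprd1 (1.11 to 2.46) and Oprk1 (1.30 to 2.72) overlapped, and Oprm1 was below both (0 to 0.83). The pooled length of Oprm1, 8037 exon and 2519 coding bases, may lower its value, which was not tested. Oprl1 made up 79.8% to 89.5% of the summed receptor level in CTR and 84.9% to 89.2% in SS. The order of Oprd1 and Oprk1 depends on the length used. Per kb of coding sequence Oprk1 (10.4 to 21.8 CPM per kb) stood above Oprd1 (3.98 to 8.87). Of the 9151 exon bases of Oprk1, 1140 are coding.

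**Figure D3:**
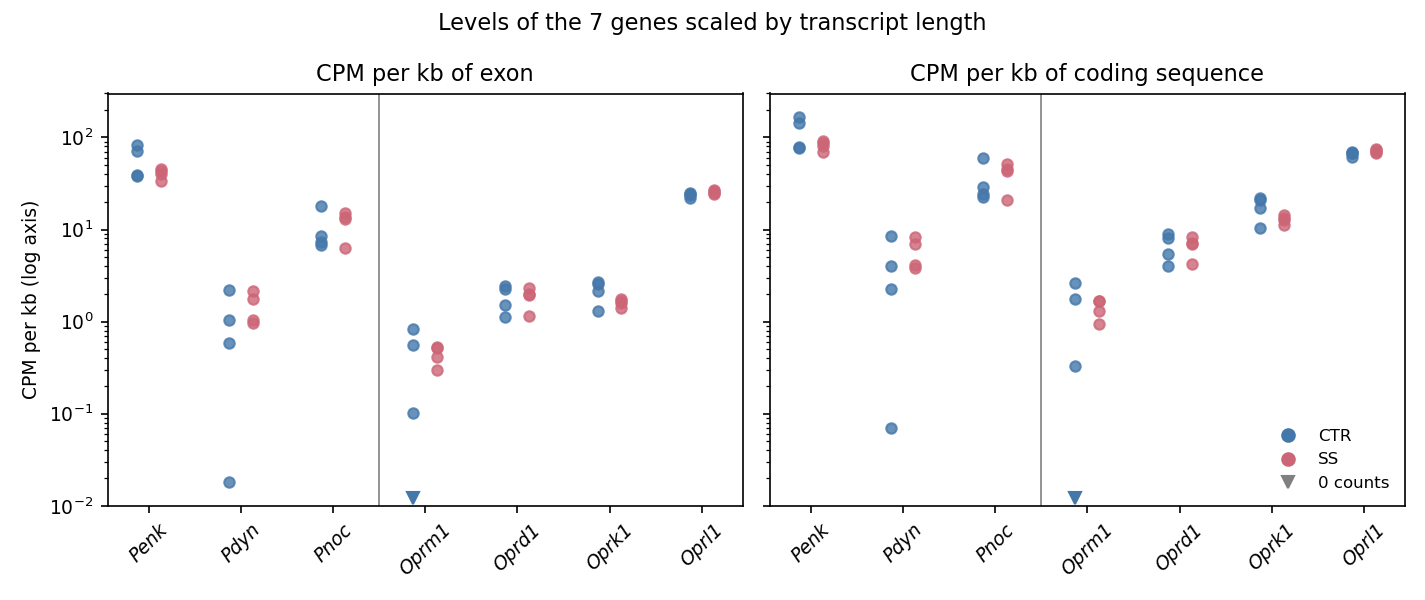
Level of each opioid gene in each library on a log axis, in CPM per kb of exon (left) and per kb of coding sequence (right), for CTR (blue) and SS (red); triangles at the lower edge mark the library with 0 counts. Penk leads the precursors and Oprl1 the receptors on both scales, while Oprd1 and Oprk1 overlap on the left only.

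The genes whose profile over the 8 libraries was closest to each member were also read, by the root mean square difference of standardised log2 CPM (0 for the same profile). For Oprm1 they were Swap70 (0.0948) and Arl14ep (0.106). Swap70 was likewise lowest there, with 0.62 CPM for CTR-1 and 4.36 CPM for CTR-3 beside 8.36 to 15.5 CPM elsewhere. For Pdyn they were Lrrc75a (0.158) and Gpr165 (0.171), both lowest in CTR-1, and for Pnoc Arhgap36 (0.213) and Gabre (0.251), both lower in SS-5 than in the other SS libraries. Penk was closest to Mrpl44 (0.214) and Tcea1 (0.229), which also were highest in CTR-2. The closest genes were less alike for Oprk1 (Bzw2, 0.295, and Ppp1r7, 0.305), Oprl1 (Zfp583, 0.291, and Asic1, 0.379) and Oprd1 (Sgms2, 0.313, and Map7, 0.361). Each member was compared with 11311 or 11312 genes over only 8 libraries. None of these 14 genes passed the test between SS and CTR. That says little, since they were picked for profiles like those of members that did not pass.

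The genes that make, break down and act after opioid peptides were read as lists. Of 39 such genes, all tested, edgeR's test and DESeq2 called none. At an unadjusted p under 0.05 there were 3 lower and 2 higher in SS (3.7% and 2.85% of all tested genes), and the groups did not overlap in 2 (4.67% of all tested genes). The median log2 fold change was -0.032 beside 0.0037 over all genes.

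Of the 7 processing genes, 6 had a negative log2 fold change and none was called (median -0.066). Cpe, the carboxypeptidase that trims cut peptides, averaged 2110 ± 206 CPM (CTR) and 1840 ± 54.4 CPM (SS; log2 fold change -0.20, SE 0.075, unadjusted p = 0.022, adjusted p = 0.75). Scg5, the chaperone of the convertase PC2, was at 601 ± 122 and 494 ± 34.2 CPM (-0.28, SE 0.13, adjusted p = 0.75). The convertase genes lay nearer to 0, Pcsk1 at -0.05 (SE 0.12) and Pcsk2 at -0.065 (SE 0.081), and Pam, which amidates peptides, was at 0.17 (SE 0.098, adjusted p = 0.77). Of the 7 genes of peptide breakdown and scavenging, 5 had a positive value (median 0.22). The smallest p was that of Ace, with 53.0 ± 7.17 CPM (CTR) and 65.3 ± 12.3 CPM (SS; 0.30, SE 0.15, adjusted p = 0.75). Ece2, an endothelin-converting enzyme gene, was at 0.29 (SE 0.32). The aminopeptidase gene Anpep had the largest value, 0.91 (SE 0.80), and ranged from 2 counts in one CTR library to 224 in another library. Mme, which encodes neprilysin, an enkephalin-degrading enzyme, was at 0.22 (SE 0.37).

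Of 14 genes of G proteins and their effectors, 6 had a positive and 8 a negative value (median -0.020). Inwardly rectifying potassium channels opened by these receptors are encoded by Kcnj3 (-0.20, SE 0.23), Kcnj5 (0.18, SE 0.34), Kcnj6 (-0.55, SE 0.33) and Kcnj9 (0.22, SE 0.14). Kcnj6, the subunit typical of dopamine neurons, averaged 13.5 ± 6.85 CPM (CTR) and 9.25 ± 1.14 CPM (SS), with an adjusted p of 0.78 in the same test. Its values overlapped, at 6.2 to 21.4 CPM in CTR and 8.25 to 10.9 CPM in SS. Summed dopamine neuron markers were also lower in SS, and their part in the Kcnj6 level was not tested. Adcy1, an adenylyl cyclase gene, was at 105 ± 47.4 and 76.8 ± 3.52 CPM (-0.45, SE 0.25, adjusted p = 0.77), and Gnai2, an inhibitory G protein gene, at 260 ± 26.9 and 233 ± 8.62 CPM (-0.16, SE 0.093, adjusted p = 0.78). Of 10 genes that regulate receptors, Gprasp1, which encodes a sorting protein of the δ receptor, had the smallest p of all 39. Its means were 906 ± 101 CPM (CTR) and 1120 ± 73.3 CPM (SS), a log2 fold change of 0.31 (SE 0.091, unadjusted p = 0.0054, adjusted p = 0.64), with every SS library (1030 to 1190 CPM) above every CTR library (764 to 979 CPM). Arrb2, the β-arrestin 2 gene, ranged from 42.5 to 62.3 CPM in CTR and from 66.3 to 70.6 CPM in SS (0.34, SE 0.13, adjusted p = 0.75). Rgs7, which speeds the turn-off of inhibitory G proteins, was at -0.35 (SE 0.14, adjusted p = 0.75). Pomc, the endorphin precursor, was sparse, with 23 to 151 counts per library (-0.46, SE 0.58, adjusted p = 0.90).

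**Figure D4:**
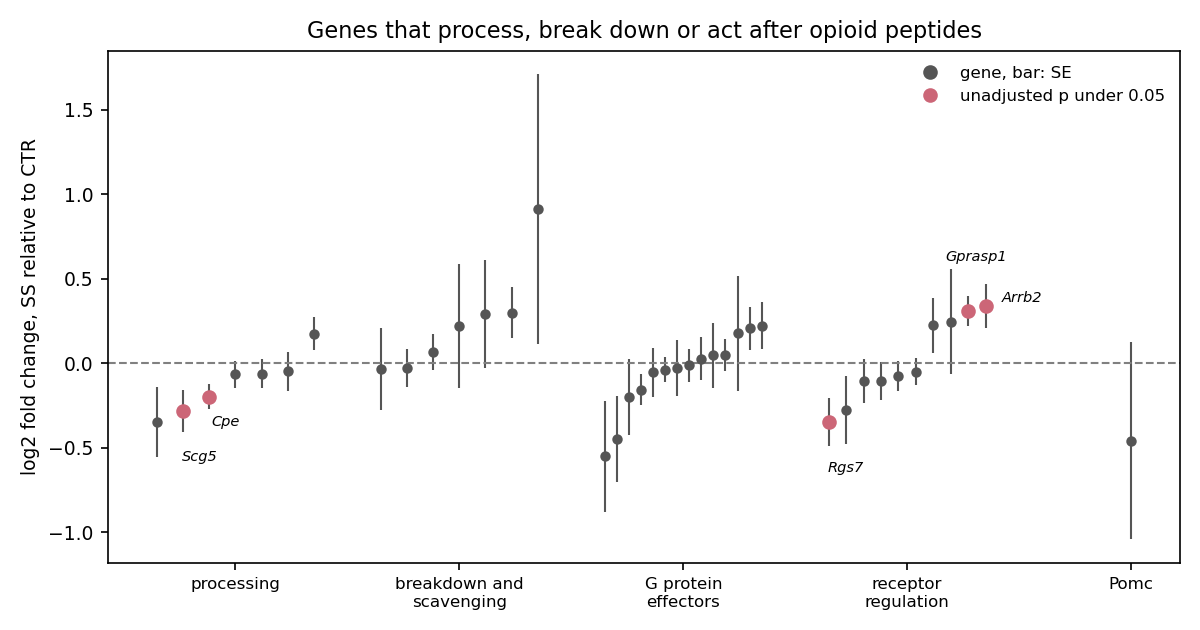
Log2 fold change of SS relative to CTR (vertical axis, bars: SE) for 39 genes in 5 lists, ordered by value within each list, with genes at an unadjusted p under 0.05 in red and named. Most points lie near 0; Cpe, Scg5 and Rgs7 are the red points below 0 and Gprasp1 and Arrb2 those above, and none passes the adjusted threshold.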

How the data were processed

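Per-gene counts of 8 VTA libraries (4 CTR, 4 SS) were analysed. Per the methods, the authors used Cutadapt for trimming of single-end reads, STAR for alignment to mm10 and htseq-count with an Ensembl annotation, and they deposited whole counts without normalization. Tool versions are not given in the sources used here. Libraries held 20036086 to 47319997 counts. Intervals from counts of 0 cover counting error only.

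In R 4.3.3, genes were kept with filterByExpr of edgeR 4.0.16 (minimum count 10, minimum total 15), normalized with TMM and tested by glmQLFit and glmQLFTest with default options on a model of group alone, at a Benjamini-Hochberg adjusted p of 0.05. The SE is the log2 fold change divided by the root of F. DESeq2 1.42.0, the study's own test, was an alternative. The test was also run on simulated data with known changes. Each opioid gene was also compared by an exact permutation test on log2 CPM (prior count 2). GENCODE M21 (GRCm38, the build of mm10) gave exon lengths, positions and coding sequences. Promoter and protein sequences were not used here.

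Members, lists and alternatives were chosen with earlier results of these data known. All 7 members are named, with the list genes of smallest p (up to 3 per list), the closest 2 profiles among genes of at least 5 CPM on average, and some list genes chosen after their values were seen (Pcsk1, Pcsk2, Mme, Kcnj3, Kcnj5 and Kcnj9). Summed markers of oligodendrocytes (17800 to 25300 CPM), their precursors (287 to 408 CPM), astrocytes (727 to 876 CPM), microglia (90.6 to 145 CPM), endothelium (112 to 163 CPM) and the habenula and interpeduncular nucleus (4.1 to 11.2 CPM) were also read.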

Additional observations from a re-analysis of the deposited data

Results flagged for a closer look

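Of 14 groups of 4 values (7 opioid genes in CTR and SS), 1 held a library far from the rest by Dixon's ratio of the gap to the nearest library over the whole range, where chance gives about 1 in 20 groups (0.7 here). It was Pnoc in CTR, with a ratio of 0.837, just past the 95% limit. CTR-1 stood at 38.4 CPM and the other CTR libraries at 14.7 to 18.6 CPM. The log2 fold change of Pnoc was 0.26 with CTR-1 and 0.67 (SE 0.26) without it.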

How the results depend on the processing

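No alternative called an opioid gene or a gene of the lists: 0 in each of the 18 alternatives to edgeR's test. The count over all genes moved from 14 to 81 with DESeq2, 22 with no filter, 22 with a mean count of at least 50, 27 with edgeR's bias-adjusted estimate, 9 without CTR-5 and SS-5, and between 6 and 19 when single libraries were left out (6, 7, 8 and 9 for SS-4, SS-3, SS-2 and SS-5). The replicate numbers did not pair the libraries (correlations of deviations -0.00625, -0.00767 and 0.0603 for numbers 2, 3 and 5). With the number as a block, 9 genes were called and no opioid gene. With the presence of Xist as a covariate, 19 genes were called and no opioid gene. Penk, Pdyn, Pnoc and Oprm1 were then at -0.48, 0.60, 0.20 and 0.27, and Oprd1, Oprk1 and Oprl1 at 0.0097, -0.42 and 0.099. Without CTR-5 and SS-5, the libraries with Xist, the first 4 were at -0.58, 0.83, 0.34 and 0.64. The other 3 were at 0.0034, -0.33 and 0.086. Signs turned in 12 cases. Penk became 0.079 without CTR-1 and CTR-2. Oprm1 became -0.18 without CTR-1 and -0.087 without CTR-3, and 0.97 without CTR-2 was its highest value. Oprd1 became -0.0022 with a mean count of at least 50, -0.091 with the bias-adjusted estimate, -0.038 without CTR-1 and CTR-2, -0.23 with the replicate block, and lay between -0.17 and 0.18 when single libraries were left out. The causes were not tested. Penk had an unadjusted p under 0.05 in 8 of the 18 alternatives, Oprk1 in 1 (0.0045 without CTR-3) and Pnoc in 1 (0.025 without CTR-1), all with an adjusted p above 0.05. Pnoc, Pdyn, Oprk1 and Oprl1 kept their sign in all 18. The spread among CTR libraries limits what can be seen for Oprm1 and Pdyn.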
